A study of Rattus norvegicus with 4 samples.

Results

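This report covers 9 genes that encode transcription factors of excitatory cortical neurons and of the pallium, the dorsal forebrain from which the cortex grows. They were chosen by name from textbook roles: Neurod1, Neurod2, Neurod6, Emx1, Tbr1, Bcl11b, Fezf2, Cux1 and Eomes. Earlier results of these data were known at that point, so counts of members below are descriptions and not tests. A gene was measured where a probe set of the array was annotated to it alone, which held for 8 of the 9 among 17245 named genes in all. Each of the 8 had 1 such probe set. The single row that lists Eomes also lists Golga4 and Itga9, so Eomes was not analysed here. The 4 arrays, 2 in each group, were of total RNA from primary cortical neurons of Sprague Dawley rat embryos at embryonic day 18. All cultures had been infected with pLL3.7, a lentivirus that delivers a short hairpin RNA (shRNA), and RNA was taken 5 days after infection. In the PHF6 shRNA group the virus carried PHF6shRNA-2, and in the control shRNA group, labelled wild type, it carried a control shRNA. PHF6 is a nuclear PHD-finger protein mutated in an X-linked intellectual disability. Both arrays of that group carry the same hairpin, so loss of PHF6 and other effects of the hairpin cannot be told apart. The labels call the arrays biological duplicates and name no separate cultures or animals, so p-values measure only how far these arrays spread.

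Excitatory cortical neurons form in a relay of transcription factors. Emx1 marks dorsal progenitors, Eomes (Tbr2) marks the intermediate progenitors they produce, and the basic helix-loop-helix proteins Neurod1, Neurod2 and Neurod6 drive and maintain neuronal differentiation. Tbr1, Fezf2 and Bcl11b (Ctip2) set the identity of deep-layer projection neurons, and Cux1 is characteristic of upper layers. These layer roles are best known from mouse.

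NeuroD proteins bind the E-box, written CANNTG. The promoters of the 3 Neurod genes are shown because these relatives had unlike values in the comparison, and that of Emx1 because its groups did not overlap. Those of Tbr1 and Fezf2, whose groups also did not overlap, were searched but are not shown. The sequences are from RefSeq in the GRCr8 build and run from 250 bases before to 50 bases after the annotated start. E-boxes are in capitals and everything else is in lower case. The windows are chr3:84770405-84770704 (minus strand) for Neurod1, chr10:83824228-83824527 (minus) for Neurod2, chr4:86180106-86180405 (minus) for Neurod6 and chr4:119282442-119282741 (plus) for Emx1.
Neurod1: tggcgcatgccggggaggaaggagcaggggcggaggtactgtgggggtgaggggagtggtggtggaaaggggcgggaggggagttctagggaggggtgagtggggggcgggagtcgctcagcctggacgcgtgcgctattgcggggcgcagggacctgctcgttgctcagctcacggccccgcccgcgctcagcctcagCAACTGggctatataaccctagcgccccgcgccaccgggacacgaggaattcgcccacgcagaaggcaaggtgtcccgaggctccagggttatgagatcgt
Neurod2: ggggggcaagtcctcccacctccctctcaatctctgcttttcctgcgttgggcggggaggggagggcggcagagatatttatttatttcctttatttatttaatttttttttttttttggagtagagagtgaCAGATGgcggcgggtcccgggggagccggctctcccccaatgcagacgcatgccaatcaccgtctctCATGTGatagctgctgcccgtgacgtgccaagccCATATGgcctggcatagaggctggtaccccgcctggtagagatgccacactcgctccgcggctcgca
Neurod6: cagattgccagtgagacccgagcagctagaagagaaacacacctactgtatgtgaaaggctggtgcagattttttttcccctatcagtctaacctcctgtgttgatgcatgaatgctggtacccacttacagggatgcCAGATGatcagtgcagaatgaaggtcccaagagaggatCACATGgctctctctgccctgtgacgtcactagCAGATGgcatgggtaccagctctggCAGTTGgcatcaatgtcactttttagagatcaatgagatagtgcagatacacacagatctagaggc
Emx1: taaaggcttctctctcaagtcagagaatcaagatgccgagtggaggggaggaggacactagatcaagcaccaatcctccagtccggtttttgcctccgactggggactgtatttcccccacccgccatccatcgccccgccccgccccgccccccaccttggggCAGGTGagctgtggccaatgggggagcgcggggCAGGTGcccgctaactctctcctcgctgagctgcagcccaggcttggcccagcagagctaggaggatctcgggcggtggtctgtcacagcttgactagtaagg

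The Neurod1 window held 1 E-box, Emx1 2, Neurod2 3 and Neurod6 4. Of 33469 promoter windows of the same length, 72.1% held at least 1 CANNTG and 5.79% held 4 or more. The CAGATG form, searched on both strands and counted again among the CANNTG matches, was found 2 times in Neurod6 and 1 time in Neurod2, and was in 16.6% of all windows. It was not among the letters of the Neurod1 or Emx1 windows. The homeodomain core TAATTA was found 2 times in the Tbr1 window and in none of the other 7 that were searched, and 5.36% of all windows held it. The T-box letters AGGTGTGA were in none of the 8 windows and in 1.1% of all. The windows of Fezf2, Cux1 and Eomes held no E-box. The table used held no window for Bcl11b. The windows also differed in base composition, with 25 CpG pairs and 68.0% G and C in Neurod1, 14 and 62.7% in Emx1, 16 and 56.3% in Neurod2, and 2 and 48.3% in Neurod6. A match describes letters and is not a measured binding site.

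Values are RMA intensities. A difference is the log2 mean of the PHF6 shRNA arrays less that of the control shRNA arrays. A gene was called above background on an array where it exceeded 95% of 206 olfactory and vomeronasal receptor genes there. That level was 39.9 and 32.7 on the PHF6 shRNA arrays and 41.1 and 32.5 on the control shRNA arrays, with the replicates numbered 1 given before those numbered 2 throughout. The targeted gene Phf6 read 34.4 and 31.3 in PHF6 shRNA arrays and 32.8 and 34.3 in control shRNA arrays, above background on 1 array of 4. At that signal it does not check the group labels. All 8 measured factor genes were above background on all 4 arrays, as was Slc17a7, the vesicular glutamate transporter VGLUT1. The arrays therefore carried signal from genes that define excitatory cortical neurons.

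Of the 8 measured factor genes 7 had a higher mean and 1 a lower mean in the PHF6 shRNA arrays. Neurod1, Emx1, Fezf2 and Tbr1 were higher on each PHF6 shRNA array than on either control shRNA array, and the groups overlapped for the other 4. Across all genes 47.7% had a higher mean, and 39.8% of the 9538 genes above background on all 4 arrays did. Groups did not overlap in the higher direction in 16.0% of all genes and in the lower direction in 21.7%, or 37.8% together. None of the 8 passed an adjusted p of 0.05 in limma, and neither did any other gene (0 of 17245, 0.0%, smallest adjusted p = 0.229). At an unadjusted p under 0.05 in limma, 2 of the 8 stood on the higher side, where 3.28% of all genes did, and none on the lower side, where 7.52% did. Those shares were 565 genes higher and 1297 lower, but with cyclic loess scaling 841 of 1808 were higher and with a further quantile normalization 773 of 1841. The median difference of the 8 was 0.09, against -0.0066 over all genes and -0.05 over the 9538 genes above background on all 4 arrays. With 2 arrays a group an exact two-sided permutation test of 1 gene cannot give a p below 0.333. In bulk RNA a different number of cells of a type and a different amount of RNA per cell cannot be told apart.

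**Figure D1:**
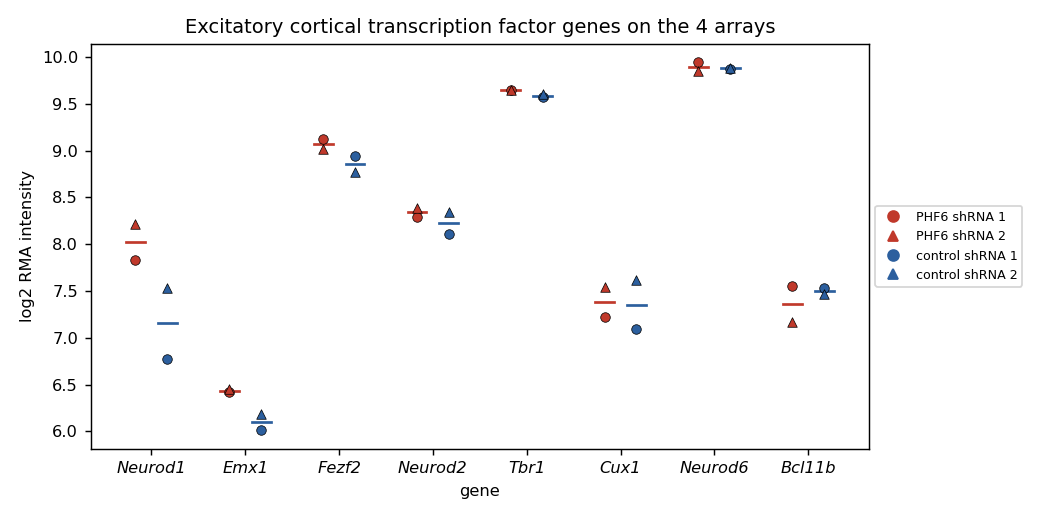
The log2 RMA intensity of the 8 factor genes is plotted on each array, with red for PHF6 shRNA, blue for control shRNA, circles for replicates numbered 1, triangles for those numbered 2 and short lines for group means. Both red points lie above both blue points for Neurod1, Emx1, Fezf2 and Tbr1. Heights are not comparable between genes, since each gene is read by its own probe set.

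Emx1 encodes the homeodomain protein of dorsal pallial progenitors and of the excitatory neurons they produce. It read 85.6 and 87.5 in the PHF6 shRNA arrays, against 64.5 and 72.9 in the control shRNA arrays. The lower PHF6 shRNA array was above the higher control shRNA array, and the PHF6 shRNA duplicates lay closer together (SD 0.02 against 0.12 log2 units, n = 2 each). The difference was 0.34 ± 0.10 (SE), or 1.26-fold, with a 95% interval from 0.09 to 0.58 (limma unadjusted p = 0.015, adjusted p = 0.331). A difference at least as high was seen in 448 genes, Emx1 included, or 2.6% of those tested. Without control shRNA replicate 1 it was 0.25, and without control shRNA replicate 2 it was 0.42.

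Neurod1 encodes a bHLH factor that is switched on as intermediate progenitors become neurons, and it showed the highest difference of the 8. It read 228 and 297 in the PHF6 shRNA arrays, against 110 and 185 in the control shRNA arrays. The groups did not overlap, but the control shRNA duplicates lay 0.75 log2 units apart and the PHF6 shRNA duplicates 0.38 apart, with the replicate numbered 2 above the other in both groups. The group means were 8.02 ± 0.27 and 7.15 ± 0.53 log2 units (PHF6 shRNA and control shRNA, SD, n = 2 each). The difference was 0.87 ± 0.27 (SE), or 1.82-fold, with a 95% interval from 0.20 to 1.54 (limma unadjusted p = 0.020, adjusted p = 0.360). A difference at least as high was seen in 35 genes, Neurod1 included, or 0.203% of those tested. The size of the difference depended on single arrays, at 0.49 without control shRNA replicate 1 and 1.24 without control shRNA replicate 2. It was 1.06 without PHF6 shRNA replicate 1 and 0.68 without PHF6 shRNA replicate 2.

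Neurod2 and Neurod6, relatives of Neurod1 that stay on in mature excitatory neurons, had smaller differences. Neurod2 read 314 and 335 in the PHF6 shRNA arrays, against 275 and 325 in the control shRNA arrays, a difference of 0.12 ± 0.11 (SE) with overlapping groups and a 95% interval from -0.16 to 0.40. Neurod6 read 985 and 922, against 939 and 948 in the control shRNA arrays, and its difference was 0.01 ± 0.08 with an interval from -0.20 to 0.23. The Neurod6 control shRNA arrays lay between the PHF6 shRNA arrays. The log2 ratio of Neurod1 to Neurod2 was -0.46 and -0.17 in the PHF6 shRNA arrays and -1.33 and -0.81 in the control shRNA arrays, a gap of 0.75 between the groups. That of Neurod1 to Neurod6 had a gap of 0.85. Neither pair of groups overlapped, and the exact two-sided permutation p of 0.333 for each of these ratios (n = 2 each) is the smallest the design allows.

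Tbr1, the T-box factor of early-born deep-layer neurons, had nearly equal values on all arrays. It read 804 on each PHF6 shRNA array, against 760 and 780 on the control shRNA arrays. The groups did not overlap, yet the difference was 0.06 ± 0.08 (SE), or 1.04-fold, with a 95% interval from -0.14 to 0.26 (limma adjusted p = 0.931). Fezf2 encodes a zinc-finger factor that specifies subcortical projection neurons. It read 559 and 519 in the PHF6 shRNA arrays, against 494 and 438 in the control shRNA arrays, so that both PHF6 shRNA arrays were the higher ones. Its difference was 0.21 ± 0.10, or 1.16-fold, with an interval from -0.04 to 0.46 (limma unadjusted p = 0.083, adjusted p = 0.556). It was 0.13 without control shRNA replicate 2 and 0.30 without control shRNA replicate 1.

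Bcl11b acts below Fezf2 in mouse corticospinal neurons and was the only one of the 8 with a lower mean. It read 188 and 143 in the PHF6 shRNA arrays, against 186 and 177 in the control shRNA arrays. PHF6 shRNA replicate 2 was the lowest of the 4 arrays, and PHF6 shRNA replicate 1 was the highest. The difference was -0.14 ± 0.14 (SE) with a 95% interval from -0.50 to 0.22, and it was 0.05 without PHF6 shRNA replicate 2. The log2 ratio of Fezf2 to Bcl11b was 1.57 and 1.86 in the PHF6 shRNA arrays and 1.41 and 1.31 in the control shRNA arrays. These ratios did not overlap, with an exact two-sided permutation p of 0.333, the smallest possible (n = 2 each). Groups did not overlap in 37.8% of all single genes, and randomly assigned labels would give 33.3% with 2 arrays a group. Cux1, the cut-homeodomain factor of upper layers, read 149 and 187 in the PHF6 shRNA arrays, against 137 and 196 in the control shRNA arrays. Its control shRNA duplicates lay 0.51 log2 units apart and enclosed both PHF6 shRNA arrays. The difference was 0.03 ± 0.20, and the 95% interval from -0.48 to 0.53 leaves room for changes of either sign.

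**Figure D2:**
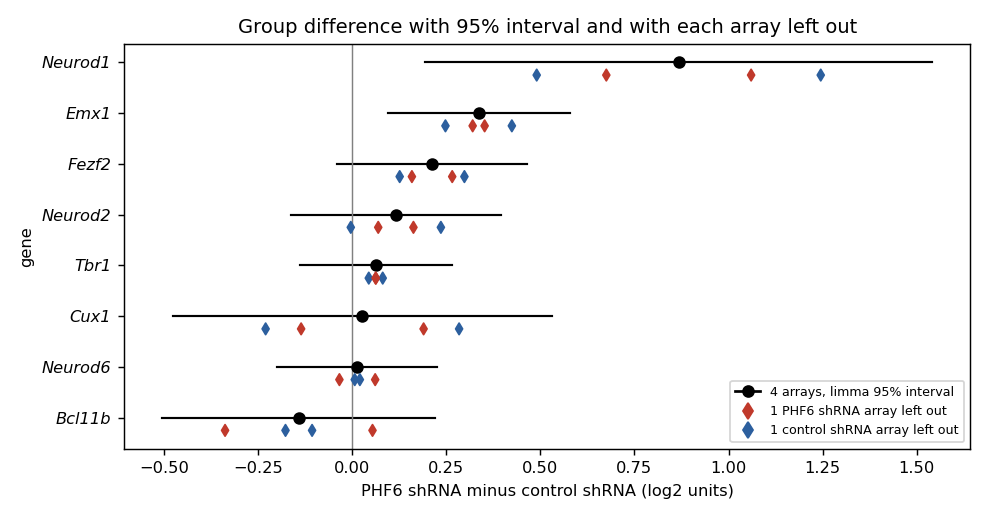
Black points and lines give the difference of each factor gene in log2 units with its limma 95% interval, and diamonds give the difference with 1 array left out (red, a PHF6 shRNA array; blue, a control shRNA array). The intervals of Neurod1 (0.20 to 1.54) and Emx1 (0.09 to 0.58) lie above 0, and those of the other 6 include it.

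The duplicates differed in the same direction in both groups for some of these genes, but not in 1 direction for all. Neurod1, Neurod2, Emx1 and Cux1 were higher in replicate 2 than in replicate 1 in both groups, and Fezf2 and Bcl11b were lower. Tbr1 and Neurod6 had opposite signs in the 2 groups. Some of these shifts were small, such as 0.03 log2 units for Emx1 in the PHF6 shRNA arrays. The share of all genes with such agreement was not counted. Genes of progenitors and dividing cells also followed the replicate numbers. Fabp7, a radial glia fatty acid binding protein, read 259 and 880 in PHF6 shRNA arrays and 222 and 821 in control shRNA arrays, and Mki67, a gene of cycling cells, read 60.7 and 236 against 108 and 205. The summed intensity of the 11 progenitor and proliferation genes was 2099 and 4640 in the PHF6 shRNA arrays and 2074 and 3855 in the control shRNA arrays, so the list followed the replicate number more than the group. Groups did not overlap for 1 of the 11, fewer than the 37.8% of all genes. This was Hes5, a Notch target, at 74.0 and 82.1 in PHF6 shRNA arrays and 62.9 and 64.2 in control shRNA arrays. The part of these cells in the values of Neurod1 and Cux1 was not tested.

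Other transcription factors of cortical progenitors and projection neurons went both ways. Of 44 listed 41 were measured, and 22 had higher and 19 lower means, with a median of 0.01. Groups did not overlap in the higher direction for 7 (17.1%) and in the lower direction for 4 (9.76%), near and below the shares over all genes. None passed the adjusted threshold (limma, smallest adjusted p in the list = 0.245). At an unadjusted p under 0.05 in limma there were 2 higher and 3 lower of the 41, near the 3.28% and 7.52% of all genes.

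Bcl6, a zinc-finger repressor that promotes neurogenesis in mouse cortex, read 76.7 and 68.4 in the PHF6 shRNA arrays and 53.6 and 51.1 in the control shRNA arrays, a difference of 0.47 ± 0.10 (SE). Nfib, a nuclear factor I gene needed for cortical maturation in mouse, read 874 and 909 against 651 and 695, a difference of 0.41 ± 0.09. These were the 2 higher ones. The 3 lower ones were Sox11, a SoxC factor of newborn neurons, Pou3f1 and Hivep2. Sox11 read 394 and 553 in the PHF6 shRNA arrays and 614 and 811 in the control shRNA arrays, with a difference of -0.60 ± 0.21. Pou3f1, a POU-domain factor, differed by -0.38 ± 0.10, Hivep2, a zinc-finger factor, by -0.26 ± 0.09, and the forkhead gene Foxp1 by -0.22 ± 0.09 at an unadjusted p of 0.054 in limma. In all 4 of these genes both PHF6 shRNA arrays were below both control shRNA arrays.

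None of the nearest relatives and partners of the 8 genes reached an unadjusted p under 0.05 in limma. Cux2, the paralog of Cux1 in upper layers, read 81.5 and 88.3 in PHF6 shRNA arrays and 85.5 and 90.9 in control shRNA arrays. Emx2 was above background on 1 array, and the progenitor factors Pax6 and Neurog2 each on 3, with Pax6 at 40.1 and 55.3 against 41.05 and 50.2 and Neurog2 at 46.8 and 39.3 against 39.6 and 36.6. Neurod4, Neurog1 and the T-box gene Tbx21 were above it on none. Of the deep-layer genes, Sox5 differed by -0.15 ± 0.18 (SE) and Foxp2 by -0.02 ± 0.12.

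**Figure D3:**
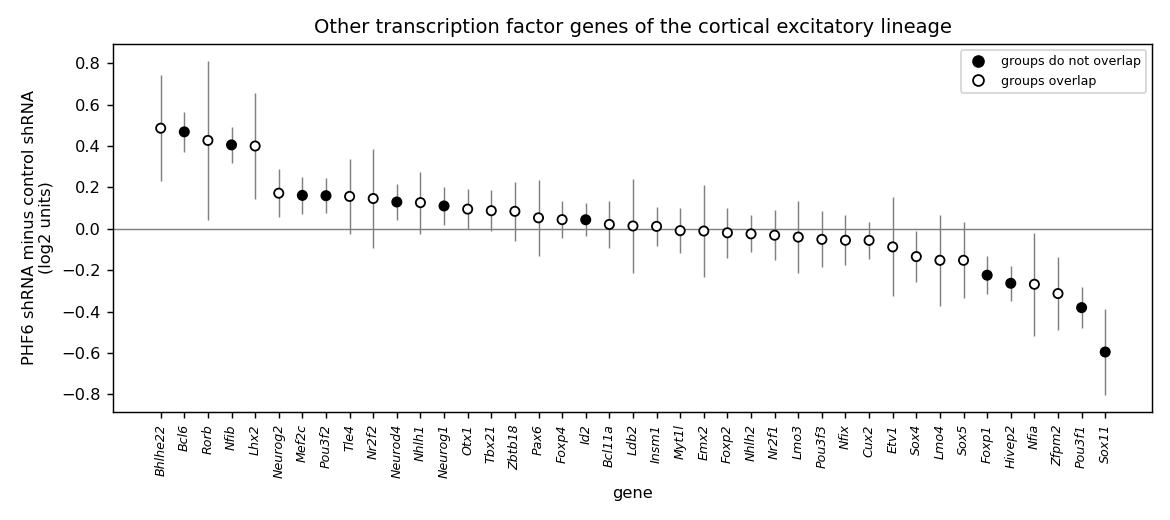
Differences in log2 units are shown for the 41 measured companion factor genes, with bars of 1 SE from limma and filled points where the groups did not overlap. They run from 0.49 for Bhlhe22, whose groups overlap, to -0.60 for Sox11.

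Genes reported in mouse as targets of Tbr1 or Fezf2 were set beside them. Ephb1, an axon guidance receptor described as a Fezf2 target, read 82.7 and 86.2 in the PHF6 shRNA arrays and 165 and 132 in the control shRNA arrays. Its difference was -0.81 ± 0.13 (SE; limma unadjusted p = 0.00099, adjusted p = 0.229), opposite in sign to that of Fezf2. Slc17a7 read 1141 and 852 against 1009 and 717, with overlapping groups and a difference of 0.21 ± 0.21. Among reported Tbr1 targets, Reln, the secreted reelin, differed by -0.16 ± 0.09, the adhesion gene Cntnap2 by 0.30 ± 0.11, Auts2 by 0.04 ± 0.11 and the NMDA receptor gene Grin2b by 0.02 ± 0.08. None of the 6 passed the adjusted threshold.

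Excitatory genes that are not transcription factors were also mixed, 6 with a higher and 5 with a lower mean among 11 measured. Camk2a, the CaM kinase of excitatory synapses, read 448 and 523 in the PHF6 shRNA arrays and 285 and 376 in the control shRNA arrays, a difference of 0.57 ± 0.16 (SE). Slc17a6, the transporter VGLUT2, read 55.6 and 47.0 against 85.2 and 79.2, a difference of -0.69 ± 0.11. Pcp4, a calmodulin regulator found in deep layers, differed by -0.25 ± 0.09 and the vesicle protein gene Sv2b by -0.39 ± 0.19. The groups did not overlap for these 4 of the 11 genes, a share close to the 37.8% of all genes, and none passed the adjusted threshold (limma, smallest adjusted p = 0.233). The list median was 0.02, against 0.09 for the factor genes.

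By their shape over the 4 arrays the genes nearest to Neurod1 were Smarca2, an ATPase of the BAF chromatin remodelling complex, Tox3, an HMG-box factor, and Dap. The measure was the root mean square distance between log2 profiles after each gene's mean was subtracted, over 10888 genes, and it was 0.05, 0.07 and 0.08 log2 units. Smarca2 read 276 and 373 in the PHF6 shRNA arrays and 147 and 230 in the control shRNA arrays. Tox3 read 209 and 276 against 108 and 159. As in Neurod1, the replicate numbered 2 was the higher one in each group for both genes, which follows from how they were chosen. With 4 arrays, such likeness describes these arrays only.

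Markers of the other cells that a cortical culture can hold were read beside the factor genes. GABAergic interneuron markers had higher means in 17 of 19 measured, where 47.7% of all genes did, and their median was 0.11. Their groups were apart in the higher direction in 10 (52.6%, against 16.0% of all genes) and in the lower direction in 1 (5.26%, against 21.7%). They were led by Calb1, a calcium buffer also found in excitatory neurons, at 1.43 ± 0.35 (SE), while Erbb4 differed by -0.38 ± 0.12. The distal-less genes Dlx6, Dlx5 and Dlx2 differed by 0.25, 0.33 and 0.20 and the progenitor factor Nkx2-1 by 0.22, with Dlx5 above background on 2 arrays. Dlx1, Sp8, Vip, Calb2 and Pvalb were above background on no array. All of these but Pvalb were among the 10 genes apart in the higher direction, so that share rests in part on dim probe sets. Of the genes of GABA synthesis and vesicle loading, Gad2 at -0.02 ± 0.16 and Slc32a1 at 0.01 ± 0.13 lay near 0. Gad1, at 0.16 ± 0.17, was above the list median of 0.11. The summed intensity of the list was 5484 and 4540 in the PHF6 shRNA arrays and 5020 and 3998 in the control shRNA arrays, which overlapped.

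Astrocyte markers had higher means in 10 of 10 measured, where 47.7% of all genes did, with a median of 0.17. Their summed intensities were 1200 and 1845 in the PHF6 shRNA arrays and 864 and 1514 in the control shRNA arrays, which overlapped. The groups were apart for 2 of the 10, both in the higher direction, near the 16.0% of all genes. The glutamate transporter gene Slc1a2 read 318 and 357 against 140 and 210, and Aldoc read 246 and 283 against 145 and 206. Slc1a3 read 278 and 665 against 254 and 622, so it followed the replicate number more than the group. Sox9 and Gja1 did likewise. Gfap read 34.6 and 46.3 against 30.0 and 52.7, with 2 arrays above background, and Gjb6 was above it on none. Aldh1l1 was not analysed here. Pan-neuronal genes had lower means in 8 of 10 and higher means in 2, where 47.7% of all genes had a higher mean. All 10 were above background on all 4 arrays, and 39.8% of all such genes had a higher mean. The list median was -0.15. Groups were apart in the lower direction in 5 of the 10, against 21.7% of all genes. They were apart in the higher direction in 1, against 16.0%. The lower genes included Nefl at -0.65 ± 0.21 (SE), Tubb3 at -0.22 ± 0.08 and Stmn2 at -0.20 ± 0.09, while Elavl4 differed by 0.43 ± 0.10. The summed intensity of the pan-neuronal list was 11350 and 11670 in the PHF6 shRNA arrays, against 12620 and 12660 in the control shRNA arrays. These sums did not overlap.

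Vascular and meningeal markers had higher means in 9 of 9 measured, where 47.7% of all genes did, and differences from 0.0006 to 0.19. Their groups were apart in the higher direction in 4 (44.4%, against 16.0% of all genes) and in the lower direction in 0. Only 2 of the 9 were above background on all arrays. Oligodendrocyte lineage markers had higher means in 3 of 8 and microglia markers in 1 of 8, with 6 of the 8 microglia genes above background on no array. No gene of these lists passed the adjusted threshold. The part of interneurons, astrocytes or other cells in the values of Neurod1, Emx1 and Fezf2 was not tested.

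**Figure D4:**
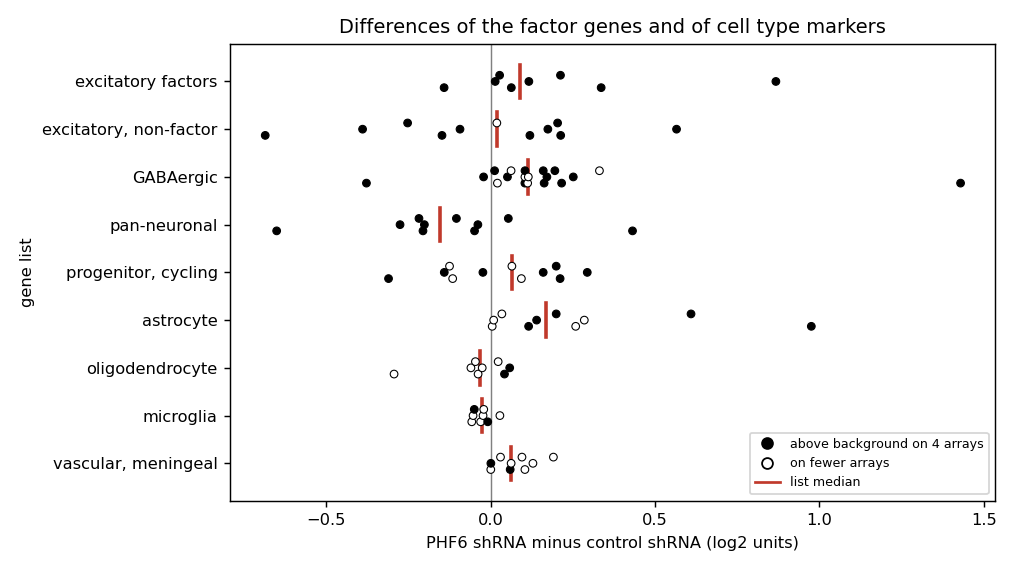
Each point is the difference of 1 gene in log2 units, filled where the gene was above background on all 4 arrays, and red lines mark list medians. The factor genes have a median of 0.09, GABAergic markers 0.11, astrocyte markers 0.17 and pan-neuronal genes -0.15.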

How the data were processed

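Per the labels' protocols, total RNA was converted to sense-strand target, labelled with biotin and read on Affymetrix whole-transcript arrays with 1 colour. The authors deposited 1 intensity per probe set and array, and RMA is the tool that the submitters' processing notes name, with no version or settings given there. Since the deposited intensities span 8.57 to 6121, they are linear, and log2 was taken before any test. RMA compresses differences of dim probe sets. Groups were taken from the sample titles.

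The platform annotation gives a single gene for 18644 of 29214 rows, and 18460 of these matched the RefSeq table (GRCr8) by gene identifier. The brightest probe set of each of 17245 genes entered 1 fit with limma 3.58.1 (R 4.3.3, lmFit then eBayes, two-sided, unfiltered, without covariates). P-values were adjusted by Benjamini-Hochberg over all of these genes, and 0.05 was the threshold. SE and 95% intervals are limma's. The fit was run on simulated data with independent errors, only to check that the differences were not biased. That run did not copy the shared replicate differences of these arrays, so it does not test the calls. The number of arrays limits the precision, and no pair shared more than 11 identical values.

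The 9 genes and the lists were chosen with earlier results of these data known. All 9 were to be named, with up to 6 members of each list by smallest unadjusted p and fixed names of relatives and of transmitter and astrocyte genes. Fabp7, Mki67, Bhlhe22 and a few others were named after their values were seen. Lists are described by counts, without a set test. Alternatives were a replicate block, leaving out each array, 3 other scalings, 2 filters on dim genes, 2 other priors, array weights and averaging the probe sets of a gene.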

Additional observations from a re-analysis of the deposited data

How the results depend on the processing

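Over the 8 genes and 14 alternatives, 106 of 112 values kept their sign and their side of the adjusted threshold, 5 turned in sign and 1 passed it. The 5 came from leaving out 1 array: Neurod2 was -0.0033 and Cux1 -0.23 without control shRNA replicate 1, Neurod6 was -0.034 without PHF6 shRNA replicate 1, and Bcl11b was 0.054 and Cux1 -0.14 without PHF6 shRNA replicate 2. Such fits leave 1 array in a group, so that the spread comes from the other group alone and the lone array is assumed to vary like it; their calls and p-values say little about stability. Leaving out each array in turn gave 0.49 to 1.24 for Neurod1, 0.25 to 0.42 for Emx1, 0.13 to 0.30 for Fezf2 and 0.04 to 0.08 for Tbr1, with unchanged sign. For the 4 that turned it gave -0.0033 to 0.24 (Neurod2), -0.034 to 0.062 (Neurod6), -0.34 to 0.054 (Bcl11b) and -0.23 to 0.28 (Cux1). The median of the 8 then ran from 0.026 to 0.18, and 5 to 7 of the 8 were higher. Other scalings gave medians of 0.14 (quantile), 0.08 (median centring) and 0.16 (cyclic loess). The count of all genes past the adjusted threshold was 0 to 90 when an array was left out (90 without PHF6 shRNA replicate 2, 2 without PHF6 shRNA replicate 1), and the cause was not tested. The replicate numbers are shared by the groups, but no label says that they pair the arrays. Deviations of same-numbered arrays correlated over genes (r = 0.57), and with the number as a replicate block 909 genes passed. Of the 8 only Neurod1 did so (limma adjusted p = 0.0077), with differences of 1.05 between the arrays numbered 1 and 0.68 between those numbered 2. Emx1 was next at 0.058. With 4 arrays the block fit has little residual spread per gene, so its p-values lean mostly on the variance shared over genes. The other alternatives gave Neurod1 an adjusted p from 0.286 to 0.418, and leaving out an array gave 0.238 to 0.587. All 8 genes were above background on all 4 arrays. Emx1 was the dimmest of them, at 64.5 on control shRNA replicate 1 against a background of 41.1. Whether compression at low signal changed the size of its difference was not tested. Signal over background does limit Phf6 and the dim markers.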
